A study of Arabidopsis thaliana with 4 samples.

Results

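The genes described are the Arabidopsis thaliana regulators of anthocyanin synthesis that act in MYB and bHLH complexes. Members were taken by locus identifier: every probe whose array annotation, without the transcript suffix, names 1 of 9 listed loci was included. This gave 9 genes and 10 probes of 29030 loci and 43603 probes on the array. All 9 genes have a probe, and EGL3 (AT1G63650) has 2. The list was drawn up with the ratios of line over wild type in both lines in view, so the ratios of these 9 genes are given as a description, with no test.

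The study compared wild type Col-0 with a line that overexpresses the full-length cowpea transcription factor VuDREB2A and with a line that overexpresses a truncated form of it. DREB2 factors are known for binding the dehydration-responsive element of drought and heat genes. Both constructs were driven by the 35S promoter in the Col-0 background, and as far as the labels state each construct is represented by 1 line, so an effect of the line and of the construct cannot be told apart. All plants, wild type included, were 21 d old, untreated and grown on agar with 1% sucrose, with 12 h of light per day at 25 °C, and RNA was taken from whole plants. Each line was hybridised with wild type on 2 arrays of 2 colours. The dyes were swapped: on replicate 1 the line was labelled with Cy3, and on replicate 2 with Cy5. Since 2 wild type replicates are stated for the whole design, both lines may have been set against shared wild type RNA.

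Anthocyanins are the red and purple flavonoid pigments of leaves and stems, and in Arabidopsis seedlings they accumulate with sucrose, strong light and stress. Their late biosynthetic genes are switched on by a complex of a MYB factor (PAP1, PAP2, MYB113 or MYB114), a bHLH factor (TT8, GL3 or EGL3) and the WD-repeat protein TTG1. MYBL2 is a small MYB-related protein that binds the bHLH partners and represses the complex. The early flavonoid genes are mainly under other MYB factors (MYB11, MYB12 and MYB111) that need no bHLH partner.

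The 4 arrays were read in 1 scan of 1 slide, so slide and scan cannot differ between the lines. Per channel, 65.6% to 72.5% of probes were well above background, and 0 gene spots were saturated. With 2 arrays per line, the number of arrays limits the precision. The transgene itself was not measured, since the array has no probe named for it. Of the 9 regulators, 6 passed the filter on dim probes and entered the fit of 22442 features. The probes of PAP2, MYB113 and MYB114 were not well above background in either channel of any array.

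PAP1 (AT1G56650, also called MYB75) is the MYB factor best known for turning on anthocyanin synthesis in seedlings and leaves. Its RNA was 4.42-fold higher than in wild type in the truncated line and near the wild type level in the full-length line. The processed signal, which is the software's background-subtracted and dye-normalized intensity, was 519 in the truncated line against 58.6 in wild type on replicate 1. On replicate 2 it was 452 against 57.2. The 2 truncated line channels were thus both far above all 4 wild type channels.

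On the full-length arrays the PAP1 signal was 54.3 in the line and 61.4 in wild type on replicate 1, and 60.1 and 62.3 on replicate 2. The full-length line channels overlapped the range of wild type. The normalised log2 ratios of line over wild type for PAP1 were 2.27 and 2.01 in the truncated line, with a mean of 2.14 ± 0.18 (SD, n = 2). For full-length plants they were -0.10 and 0.00, with a mean of -0.05 ± 0.07. Among 22442 features the PAP1 ratio ranked 10 from the top in the truncated line, whereas it lay at percentile 37.8 in the full-length line. The size of the PAP1 ratio depended on how the background was handled. The software's own log ratios gave 3.15 and 2.98 in the truncated line, a mean of 3.06 ± 0.12 or 8.36-fold, and their mean in the full-length line was -0.11.

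**Figure D1:**
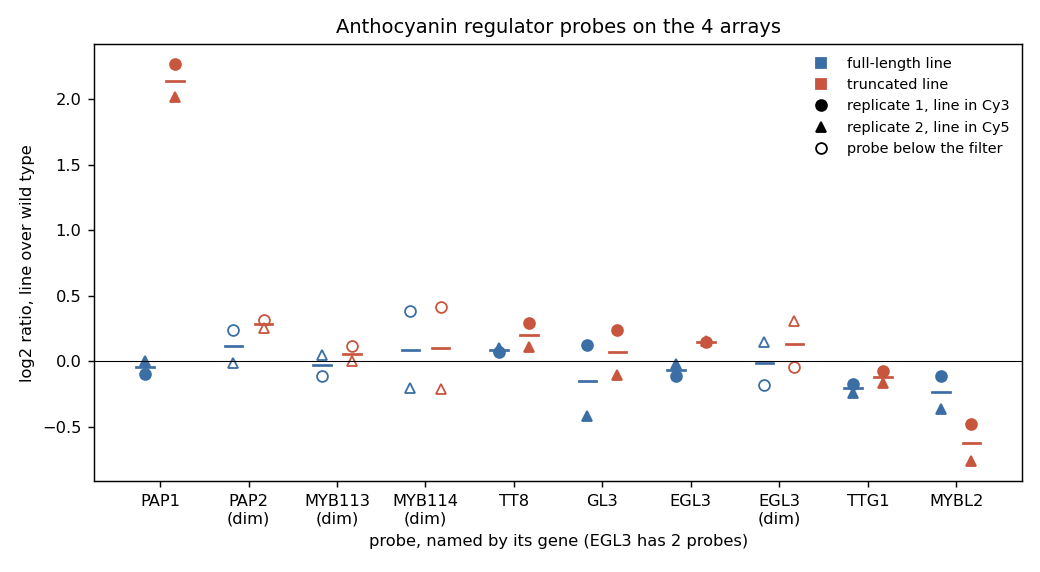
Log2 ratio of line over wild type for the 9 regulators on each array, grouped by role, with filled points for genes that entered the fit, open points for probes not well above background, and bars at the mean of the 2 arrays. PAP1 lies at 2.27 and 2.01 in the truncated line and near 0 in the full-length line, and MYBL2 lies below 0 on all 4 arrays.

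PAP2 (AT1G66390, also called MYB90), MYB113 (AT1G66370) and MYB114 (AT1G66380) are close relatives of PAP1, and the table of gene names lists them as consecutive protein-coding genes. Such relatives can share sequence, and whether their probes tell them apart was not tested, because probe sequences were not used here. For PAP2 the log2 ratios were 0.31 and 0.25 in the truncated line and 0.23 and -0.01 in the full-length line. The PAP2 processed signal was 21.1 and 15.2 in the truncated line and 10.1 and 11.8 in the full-length line, and the 4 wild type channels read 3.96, 9.50, 3.90 and 5.81. In this signal all 4 line channels of PAP2 were above all 4 wild type channels. On the scale of normalised log2 intensity, both full-length line channels (6.41 and 6.45) were below the highest wild type channel (6.46). As no PAP2 spot was well above background, no fold is given. MYB113 read 4.64 to 8.86 in every channel, and its log2 ratios were -0.11 and 0.04 in the full-length line and 0.12 and -0.00 in the truncated line. MYB114 had log2 ratios of 0.38 and -0.21 in the full-length line and 0.41 and -0.22 in the truncated line. The sign of the MYB114 ratio thus followed the dye in both lines, with the Cy3 channel brighter on 4 of 4 arrays. No difference in MYB113 or MYB114 was detectable at these signals.

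TT8 (AT4G09820), a bHLH partner of the MYB factors that is itself a target of the complex, was close to the background. Its wild type signal was not well above background on any of the 4 arrays. The full-length line channel was well above background on 2 of 2 arrays and the truncated line channel on 1 of 2, and TT8 entered the fit only through the full-length line. The log2 ratios of TT8 were 0.07 and 0.10 in the full-length line and 0.29 and 0.11 in the truncated line, positive on all 4 arrays. As no wild type spot was well above background, no fold is given for TT8 in either line. In the truncated line 1 of 2 line spots was itself not well above background. The processed TT8 signal was 28.9 and 26.8 in the full-length line, with wild type at 15.95 and 29.7 on the same arrays. In the truncated line it was 50.3 and 18.9, with wild type at 12.5 and 30.6. On replicate 2 of each line, wild type was the brighter channel in these signals, and the Cy3 channel was the brighter on 4 of 4 arrays.

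GL3 (AT5G41315), a bHLH factor of trichome and anthocyanin regulation, had log2 ratios of 0.12 and -0.42 in the full-length line and 0.24 and -0.10 in the truncated line. Each line thus had 1 array above and 1 below 0, and the means of -0.15 ± 0.39 and 0.07 ± 0.24 (SD, n = 2) were smaller than their spread. GL3 was well above background in wild type on 2 of 4 arrays, and as for TT8 its Cy3 channel was brighter on 4 of 4 arrays. It entered the fit only through the truncated line channel, which was well above background on 2 of 2 arrays.

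EGL3 (AT1G63650) is the bHLH factor that overlaps most with GL3 in function. Its brighter probe gave log2 ratios of -0.11 and -0.02 in the full-length line and 0.14 and 0.15 in the truncated line, so the 2 lines did not overlap. The means were -0.07 ± 0.06 and 0.15 ± 0.01 (SD, n = 2). The processed EGL3 signal was 98.1 and 98.7 in the truncated line, 60.3 and 81.0 in the full-length line, and 81.9 to 87.9 in wild type. The other EGL3 probe was not well above background anywhere. Its log2 ratios were -0.18 and 0.15 in the full-length line and -0.05 and 0.30 in the truncated line, with means of -0.02 and 0.13.

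TTG1 (AT5G24520), the WD-repeat protein of the complex, lay below wild type on all 4 arrays by a small amount. Its log2 ratios were -0.17 and -0.24 in the full-length line, mean -0.21 ± 0.05 (SD, n = 2), and -0.08 and -0.16 in the truncated line, mean -0.12 ± 0.06. With median centring in place of the loess curve the TTG1 mean was -0.42 in the full-length line.

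MYBL2 (AT1G71030), the repressor, was below wild type on all 4 arrays and lowest in the truncated line. The processed signal was 2758 and 2514 in the truncated line against 3918 and 4246 in wild type, and 3598 and 3571 in the full-length line against 3926 and 4676. All line channels of MYBL2 were below all 4 wild type channels, and the truncated line channels were below the full-length ones. The log2 ratios were -0.48 and -0.77 in the truncated line, mean -0.62 ± 0.20 (SD, n = 2), which is 1.54-fold lower than wild type and ranked 253 from the bottom. In the full-length line they were -0.11 and -0.37, mean -0.24 ± 0.18, and this mean was -0.48 with median centring. In both lines the replicate 2 array gave the lower MYBL2 ratio.

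**Figure D2:**
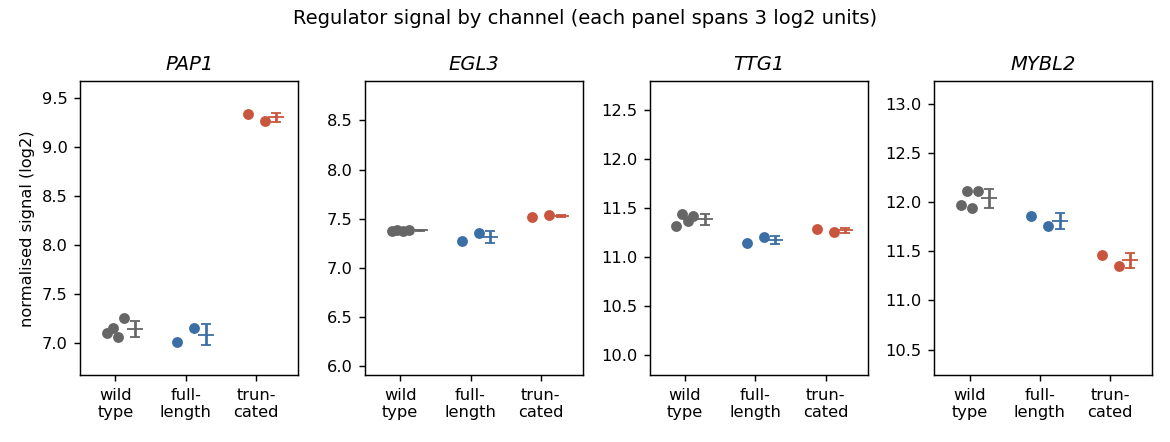
Normalised log2 intensity of PAP1, EGL3 (brighter probe), TTG1 and MYBL2, in 4 wild type channels, 2 full-length line channels and 2 truncated line channels. Each point is 1 channel, and bars mark the mean with the SD. PAP1 averages 9.30 in the truncated line against 7.14 in wild type, and MYBL2 averages 11.41 against 12.04; levels of different genes come from different probes and are not comparable.

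The order of the groups differed between genes on the scale of normalised log2 intensity. For PAP1 the truncated line (9.30 ± 0.05, SD, n = 2) was highest, and wild type (7.14 ± 0.08, n = 4) and the full-length line (7.08 ± 0.11, n = 2) did not differ beyond their spread. For EGL3 the truncated line (7.53 ± 0.01) was above wild type (7.38 ± 0.00), with the full-length line (7.31 ± 0.06) lowest. For MYBL2 the order was wild type (12.04 ± 0.09), full-length line (11.81 ± 0.08) and truncated line (11.41 ± 0.08). TTG1 was highest in wild type (11.38 ± 0.06), followed by the truncated line (11.27 ± 0.03) and the full-length line (11.17 ± 0.04). For TT8 the full-length (6.63 ± 0.06) and truncated (6.65 ± 0.12) lines did not differ beyond their spread, and wild type was at 6.50 ± 0.06. For GL3 the 3 groups overlapped, at 6.59 ± 0.11 in wild type, 6.67 ± 0.13 in the truncated line and 6.42 ± 0.23 in the full-length line.

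The difference between the lines, truncated minus full-length in log2 ratio, was 2.19 (SE 0.12) for PAP1 and ranked 8 from the top of 22442 features. MYBL2 had a difference of -0.38 (SE 0.14). EGL3 (0.21, SE 0.08), GL3 (0.22, SE 0.21), TT8 (0.12, SE 0.10) and TTG1 (0.08, SE 0.08) were small. The median of the 6 regulators was 0.11 in the truncated line and -0.11 in the full-length line, beside 0.00 and 0.01 for all features. That median pools the repressor MYBL2 with activators, and includes TT8 and GL3, whose signals were close to background. Across all features, 15.5% passed the threshold of an adjusted p of 0.05 in the full-length line (9.41% higher, 6.13% lower), 13.2% in the truncated line (7.09% higher, 6.15% lower) and 3.11% in the difference between them. No calls are given for the 6 regulators, as these genes were chosen with the same ratios in view.

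**Figure D3:**
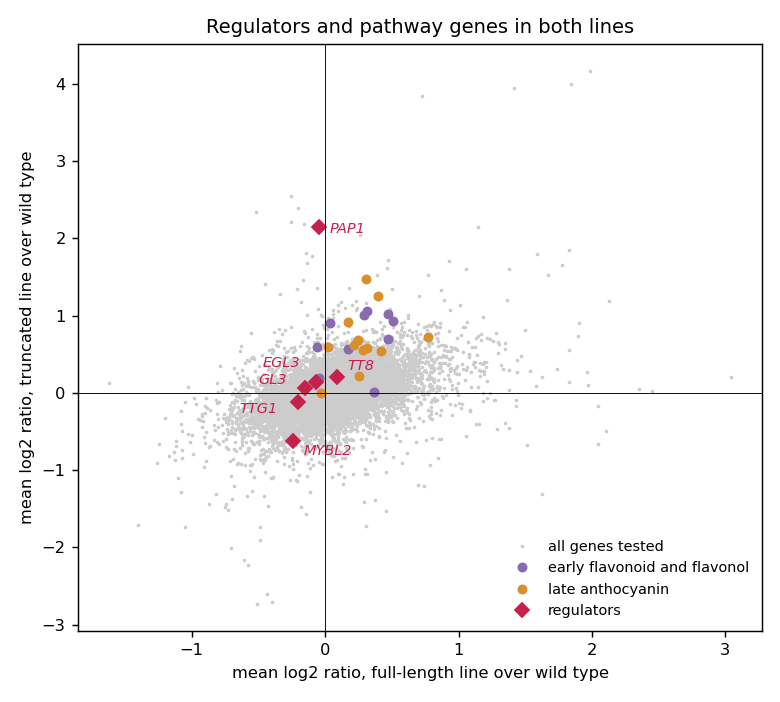
Mean log2 ratio over wild type in the full-length line (x axis) and the truncated line (y axis) for all 22442 features, with the 6 fitted regulators labelled. PAP1 stands at -0.05 and 2.14, far from the diagonal. MYBL2 lies at -0.24 and -0.62, and the other 4 lie between -0.21 and 0.20 in both lines.

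The features whose 4 ratios were nearest to those of PAP1, by Euclidean distance over the 4 arrays, were the locus AT1G47400 (distance 0.444), IRT1 (0.463), FRO2 (0.507), ZIP8 (0.519) and the locus AT1G47395 (0.562). IRT1 encodes the main iron transporter of the root epidermis, FRO2 the ferric chelate reductase that works with it, and ZIP8 a member of the same transporter family as IRT1. Their mean log2 ratios in the truncated line were 2.39 for AT1G47400, 2.19 for IRT1, 2.05 for FRO2, 1.81 for ZIP8 and 2.21 for AT1G47395. In the full-length line they lay between -0.26 and 0.26, as PAP1 did. The likeness rests on 4 arrays that may share wild type RNA, and it was chosen for the match.

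The late anthocyanin list holds mainly genes that the MYB and bHLH complex is known to switch on, and all 12 listed genes were tested. In the truncated line 10 rose and 0 fell, with a median log2 ratio of 0.61, against a share of 7.09% of all features called higher. The pathway lists were chosen with earlier results of these data known, so the counts in them describe these data and are no independent support. DFR, which makes the leucoanthocyanidin precursor and is the entry to the late steps, had ratios of 1.55 and 1.41 in the truncated line, a 2.79-fold rise (1.48 ± 0.10, SD, n = 2; adjusted p = 0.00128 by limma). TT19, a glutathione transferase needed to bring anthocyanin to the vacuole, had 1.22 and 1.28, a 2.38-fold rise (adjusted p = 0.00316), though its other probe averaged 0.51. SCPL10 (0.92 ± 0.05), an acyltransferase that adds sinapoyl groups to anthocyanins, and TT7 (0.72 ± 0.03), the flavonoid 3'-hydroxylase, also rose (adjusted p = 0.0032 and 0.01). TT7 was listed here and not with the early flavonoid genes, a choice that was not tested. Of the 12, the 2 that did not pass were 3AT1 (-0.00) and BGLU10 (0.22), which modify finished anthocyanins. With median centring in place of loess, 1 late gene (DFR) passed.

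In the full-length line, where PAP1 was at its wild type level, 4 of the 12 late genes rose and 0 fell, with a median of 0.27 and a background of 9.41% of features called higher. These were TT7 (0.77 ± 0.18, SD, n = 2; adjusted p = 0.0073), the anthocyanidin and flavonol glucosyltransferase UGT78D2 (0.41 ± 0.07; 0.0163), TT19 (0.40 ± 0.16; 0.0289) and DFR (0.31 ± 0.05; 0.0368). The TT7 ratios were 0.90 and 0.64 in the full-length line and 0.74 and 0.71 in the truncated line, so the ranges of the lines overlapped for this gene, unlike for PAP1. Single arrays decided some of these calls. Without full-length replicate 1, 3 late genes rose and DFR (0.27, adjusted p = 0.227) and UGT78D2 (adjusted p = 0.091) did not pass. Without full-length replicate 2, 2 rose and DFR (0.34, adjusted p = 0.114) and TT19 (0.28, adjusted p = 0.185) did not. With median centring 0 of the late genes passed in this line, with marked outlier spots kept 2, and with no filter on dim probes 1.

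The early flavonoid and flavonol genes are known to be under MYB12 and its relatives. Of 11 listed, 10 were tested, and 8 rose and 0 fell in the truncated line with a median log2 ratio of 0.81, against 7.09% of all features called higher. The flavonol rhamnosyltransferase UGT89C1 rose 2.09-fold (1.06 ± 0.12, SD, n = 2; adjusted p = 0.00365 by limma), F3H, the flavanone hydroxylase, 2.04-fold (1.03 ± 0.08; 0.00333), and 4CL3, which activates coumarate for flavonoids, 2.01-fold (1.01 ± 0.02; 0.00284). The flavonol synthase FLS1 rose by 0.93 ± 0.04 (adjusted p = 0.00316). The 2 that did not pass were both regulators, MYB12 (0.01) and MYB111 (0.20). With median centring 0 passed.

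In the full-length line 6 of the 10 rose and 0 fell, with a median of 0.30 and a background of 9.41% called higher. The 4 with the largest ratios were FLS1 (0.51 ± 0.01, SD, n = 2; adjusted p = 0.00841), F3H (0.47 ± 0.08; 0.0148), the chalcone isomerase TT5 (0.47 ± 0.15; 0.019) and MYB12 itself (0.36 ± 0.04; 0.0247). This count was 0 with median centring, and fell to 1 without full-length replicate 1 and to 3 without full-length replicate 2. It was 3 with marked spots kept and 1 with no filter. The other F3H probe, also well above background in every channel, averaged 0.21 in this line and 0.93 in the truncated line. MYB12 lost its call without either array, and F3H and TT5 without replicate 1 (adjusted p = 0.0629 and 0.0965).

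**Figure D4:**
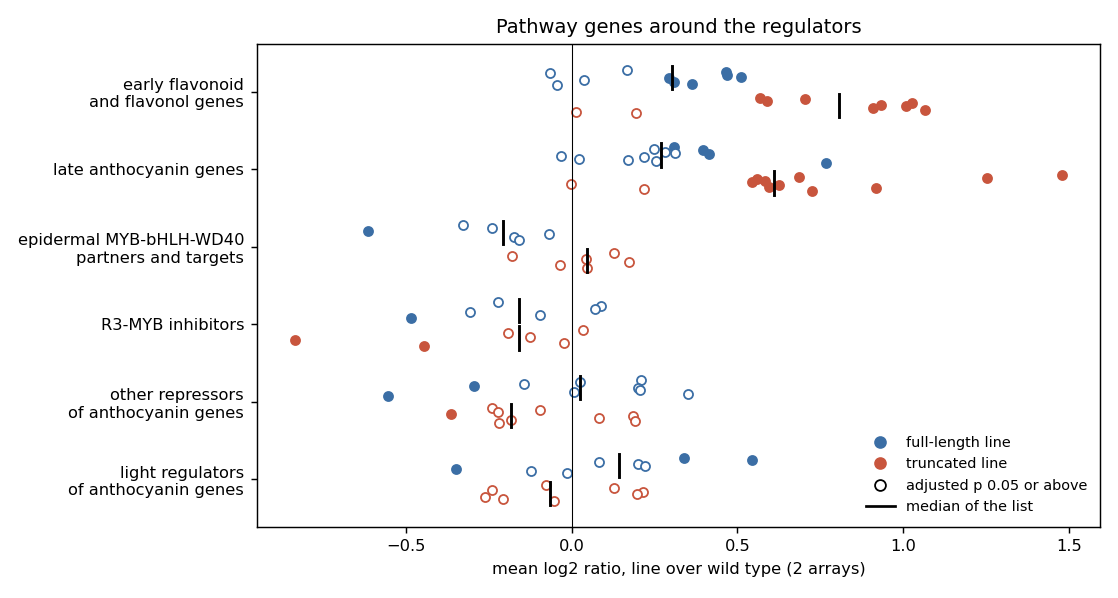
Mean log2 ratio over wild type of each tested gene in the early flavonoid, late anthocyanin, epidermal, inhibitor, repressor and light lists. The full-length and truncated lines are shown side by side, with a bar at the median of the list. Filled points are genes past an adjusted p of 0.05. The late anthocyanin genes have medians of 0.27 and 0.61 and the early flavonoid genes 0.30 and 0.81, while the medians of the epidermal, inhibitor, repressor and light lists lie between -0.21 and 0.14.

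In the contrast of truncated against full-length, the threshold was passed by 3 late genes (DFR, TT19 and SCPL10) and 4 early genes (4CL3, UGT89C1, CHIL and UGT78D1). All 7 were higher in the truncated line, 0 of them with median centring past the threshold, against a share of 0.971% of features higher in that difference. CHIL and UGT78D1 are named here after their values were seen. How far the ratio of PAP1 and those of its known targets are linked was not tested.

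Calls among other partners and opponents of the complex are to be read against 6.13% of all features called lower and 9.41% called higher in the full-length line, and 6.15% and 7.09% in the truncated line. None of the calls in this paragraph and the next passed with median centring. Among 6 epidermal genes that work with or under TTG1, GL3 and EGL3 in trichomes and root hairs, MYB23 fell in the full-length line by 0.61 ± 0.09 (adjusted p = 0.0139 by limma), and 0 passed in the truncated line, where MYB23 was at 0.04. Among 6 inhibitors with a single MYB repeat, which compete for the bHLH partners, TCL1 fell in the full-length line by 0.48 ± 0.03 and in the truncated line by 0.45 ± 0.11 (adjusted p = 0.0134 and 0.0189), and ETC2 fell in the truncated line by 0.83 ± 0.46 (adjusted p = 0.0308). The TCL1 call in the truncated line was lost without truncated replicate 1 (adjusted p = 0.100). With marked spots kept, the full-length calls of MYB23 (-0.37, adjusted p = 0.133) and TCL1 (-0.28, adjusted p = 0.190) were lost, and with no filter the truncated calls of TCL1 and ETC2 were (adjusted p = 0.0664 and 0.0873).

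Of 9 further repressors of anthocyanin genes, 0 passed as higher in either line. MYB3 fell by 0.36 ± 0.02 in the truncated line and 0.30 ± 0.13 in the full-length line (adjusted p = 0.0328 and 0.0472), calls lost on leaving out either array of the line concerned. HAT1, a homeodomain factor, fell by 0.55 ± 0.11 in the full-length line (adjusted p = 0.0134). Of 8 light regulators, the bZIP factors HYH (0.54 ± 0.01) and HY5 (0.34 ± 0.03) rose and BBX21 fell by 0.35 ± 0.04 in the full-length line (adjusted p = 0.0103, 0.0212 and 0.0252). In the truncated line 0 of the 8 passed, with a median of -0.07. The HY5 and BBX21 calls were lost without either full-length array. Of 7 listed seed coat genes, 0 were bright enough to be tested.

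Whole plants mix organs, so fewer cells of a type and less RNA per cell cannot be told apart. Of 6 shoot photosynthesis markers, all were measured, with median log2 ratios of -0.19 in the truncated line and -0.25 in the full-length line. On replicates 1 and 2 the medians were -0.28 and 0.04 in the truncated line and -0.34 and -0.07 in the full-length line. LHCB4.1 was called lower in the full-length line (-0.24, adjusted p = 0.0477 by limma). The summed level of the shoot markers was 574400 to 726600, 594200 to 750900 and 657600 to 806300 in the full-length line, the truncated line and wild type. Of 11 root markers, 10 were tested, and their summed level was 6179 to 6585 in the full-length line, 8409 to 8885 in the truncated line and 8787 to 9281 in wild type. The root medians were 0.10 in the truncated line, where IRT1 rose by 2.19 and MRN1 fell by 0.58, and -0.21 in the full-length line, where TIP2;3 and CASP1 fell. Of 6 flower markers, PI and SEP3 were tested and AP1, AG, AP3 and LFY were not. The flower sums were 1176 to 1264, 729 to 776 and 889 to 927. In the truncated line PI rose by 0.86 and SEP3 fell by 0.83 (adjusted p = 0.00342 and 0.00547 by limma), and in the full-length line SEP3 rose by 0.51 (adjusted p = 0.0132). Of 4 seed markers 1 was tested, with sums of 108 to 121 over all groups. Of all features, 6.13% were called lower and 9.41% higher in the full-length line, and 6.15% and 7.09% in the truncated line. With median centring 0 features were called lower in the full-length line, so LHCB4.1, TIP2;3 and CASP1 lost their calls. The other marker calls were not followed under other processing. The part of these organ levels in the regulator ratios was not tested.

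**Figure D5:**
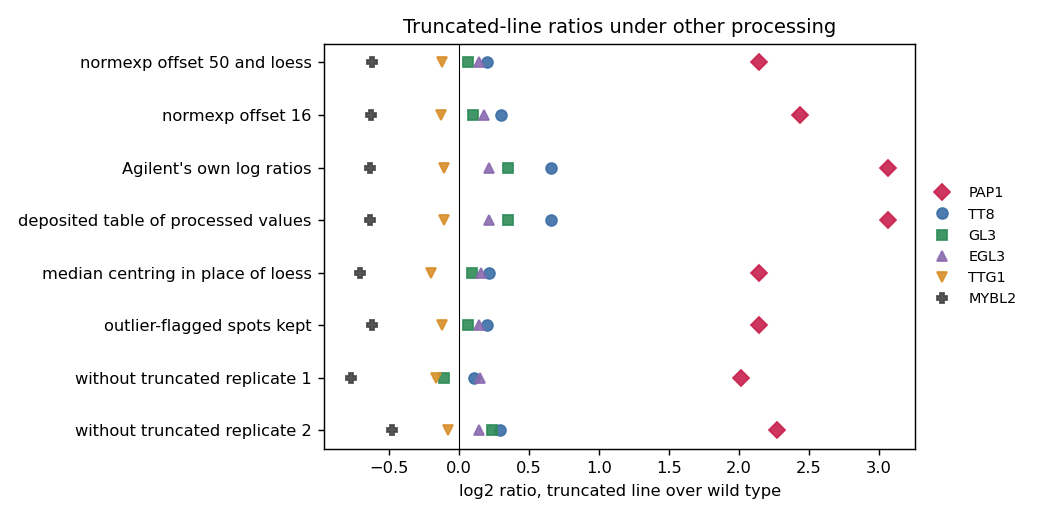
Log2 ratio over wild type of the 6 fitted regulators in the truncated line, under several processing settings and with each truncated array left out. PAP1 in the truncated line stays at 2.01 or above with any array left out and reaches 3.06 with the software's own log ratios, and MYBL2 in the truncated line stays below 0 throughout.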

How the data were processed

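The members and the pathway lists were chosen with earlier results of these data known. Per the file headers, the authors used Agilent Feature Extraction 10.7.3.1. The deposited scanner files hold, for both dyes, each spot's median intensity, its median local background and its processed intensity, with flags. The deposited LogRatio column is log10 of Cy5 over Cy3. The separately deposited value table is in log2, with the line as numerator: regressed on the LogRatio column in that direction, its columns had slopes of 0.998 to 1.00 and medians of 0.01, -0.06, 0.04 and -0.07, so scale, centring and direction are known.

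Spots marked as outliers (20 to 50 gene spots per array) were left out, background was corrected with normexp (offset 50), and log ratios were normalized by loess within each array, with control spots at weight 0. Leaving marked spots out before the background correction was chosen after earlier results were seen. Genes were tested if the line was well above background on its 2 arrays, or wild type on all 4, and the brightest passing probe was used. Of 22442 features, 20341 had a locus, 20143 of those matched the table of gene names, and 57 probes with a missing value were left out. No coordinates are given, because the array was annotated on an older build.

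The model was limma's (version 3.58.1, R 4.3.3), both lines in 1 fit (2 residual and 3.18 prior degrees of freedom), and p-values were adjusted by Benjamini-Hochberg over all 22442 features, with a threshold of 0.05. They measure only the spread between these arrays, which may be technical, dye effects included. Named are the 9 regulators, up to 4 genes past the threshold with the largest ratios per pathway list and line, and the 5 genes nearest to any regulator with a mean ratio of at least 1 in size. List genes that did not pass are also named where few, after their values were seen. The comparison of protein and promoter sequences that had been planned was not run, since no sequences were used here. The alternatives were the software's log ratios, median centring, an offset of 16, marked spots kept, no filter, the mean over probes, a replicate block, the deposited table and each array left out.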

Additional observations from a re-analysis of the deposited data

Results flagged for a closer look

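At its brighter probe, EGL3 differed in sign between the lines, with both full-length arrays below 0 and both truncated arrays above it. Truncated minus full-length was 0.21 in log2. This difference was not tested, as EGL3 was chosen with these ratios in view. The other EGL3 probe, not well above background on any array, had ratios of both signs in each line.

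For 5 of the named pathway genes, the difference between the lines passed the threshold (truncated minus full-length in log2, adjusted p by limma over 22442 features), with the truncated line higher in both replicate pairs. The late genes were DFR (1.17, SE 0.09, adjusted p = 0.011), TT19 (0.86, SE 0.11, adjusted p = 0.028) and SCPL10 (0.75, SE 0.08, adjusted p = 0.0214). The early genes were UGT89C1 (0.76, SE 0.10, adjusted p = 0.0352) and 4CL3 (0.72, SE 0.08, adjusted p = 0.0246). The other TT19 probe, also well above background in every channel, gave a difference of 0.16. Over 12 alternatives, DFR kept its call in 11 and lost it with median centring (range 1.10 to 1.40). TT19 kept it in 10 and lost it with median centring and with no filter (0.51 to 1.13). SCPL10 kept it in 8 (0.71 to 0.84), 4CL3 in 8 (0.67 to 0.82) and UGT89C1 in 7 (0.67 to 0.89). These 3 also lost it with the software's log ratios and the deposited table, and UGT89C1 with an offset of 16.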

How the results depend on the processing

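Counts of features called depended on the processing. From 3486 in the full-length line, the count was 8 with median centring, 1018 with marked spots kept, 1033 with no filter and 12747 with the replicate block. From 2972 in the truncated line, it was 41 with median centring, 704 with no filter and 12169 with the block. From 698 in the difference, it was 0 with median centring (limma, with 426 at an unadjusted p under 0.05), 172 with the software's log ratios, 387 with an offset of 16, 367 with marked spots kept, 86 with no filter, 8775 with the block and 162 with the deposited table. With 1 array left out the counts were 1774 to 4303, 1322 to 3553 and 713 to 801. Without full-length replicate 1 or 2 the full-length count was 1774 or 1819, and without truncated replicate 1 or 2 the truncated count was 1322 or 1624. With median centring 100% of the full-length calls and 61.0% of the truncated calls were higher, against 60.6% and 53.5%. The block is the dye orientation, deviations of same-numbered arrays correlated at 0.775 over 2 pairs, and it changed none of the 26 named pathway calls. It added others: late genes called higher went from 4 to 10 in the full-length line, from 10 to 11 in the truncated line and from 3 to 8 in the difference, and early genes from 6 to 7, 8 to 9 and 4 to 9. Of the 9 further repressors, the block called 4 higher and 3 lower for full-length, and 2 and 6 for truncated plants. Of the 8 light regulators it was 4 and 2, and 3 and 3, of the 6 epidermal genes 0 and 5, and 2 and 1, and of the 6 inhibitors 0 and 3, and 0 and 4. Of those calls, 25 were lost with median centring (DFR in the truncated line was not, adjusted p = 0.0305), 12 with no filter, 7 with marked spots kept and 2 with an offset of 16 (ETC2 in the truncated line, MYB3 in the full-length line). No named call reversed. The late truncated median of 0.61 was 1.22 with the software's log ratios. Of 18 regulator values, 11 moved beyond the replicate SD with the software's log ratios, 8 with median centring and 4 with an offset of 16. Signs turned for PAP1 in the full-length line (0.05, median centring, and 0.00, without full-length replicate 1), GL3 in the full-length line (0.02, median centring, and 0.12, without full-length replicate 2) and in the truncated line (-0.10, without truncated replicate 1), the TT8 difference (-0.05, median centring) and the GL3 difference (-0.06, without full-length replicate 2). The causes were not tested. Signal close to background limits TT8, GL3, PAP2, MYB113 and MYB114.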
